A study of Mus musculus with 6 samples.

Results

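Alpha-v integrin and the beta chains that pair with it were followed in monocytes from 2 skeletal sites, the mandible and the femur. The members were the 6 rows of the count table, of 57010 genes in all, whose gene name was Itgav, Itgb1, Itgb3, Itgb5, Itgb6 or Itgb8. Monocytes were taken from the bone marrow of C57BL/6 mice (C57BL/6J in the study's methods) at an age of 1 year, with no transgene and no treatment named in the labels of either group, and RNA was sequenced in 3 femur libraries (S13, S15 and S18) and 3 mandible libraries (S16, S19 and S23). The cells were enriched by negative selection, so that labelled marrow cells were held on a magnetic column and the cells that ran through were kept. Mice of both sexes were used, but the labels tie no library to an animal, a sex or a batch, so the p-values measure only the spread between these libraries.

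An integrin is a receptor for extracellular matrix made of 1 alpha and 1 beta chain, and cells set what they bind by which chains they pair. The alpha-v chain can pair with each of the 5 beta chains followed here, and most of the resulting receptors read the Arg-Gly-Asp (RGD) motif of matrix proteins. The alpha-v beta3 receptor is the vitronectin receptor with which osteoclasts hold bone, while beta5 binds vitronectin too and is known from osteoclast precursors and from mesenchymal cells. Beta6 is a chain of epithelia, and the beta6 and beta8 receptors are known for freeing TGF-beta from its latent form. Beta1 also pairs with many other alpha chains, and beta3 has a partner besides alpha-v in the alpha-IIb chain (Itga2b) of platelets and megakaryocytes.

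The libraries held 15718782 (S23) to 25371474 (S18) counts on genes, and 18114 genes, the 6 members among them, passed a filter on low counts. Femur library S15 had counts on 40494 genes, against 17481 to 23513 in the other 5 libraries. Mandible library S23 alone had many counts of Xist, which silences an X chromosome in female cells, at 25189 against at most 12 elsewhere, and it had no count of the Y-linked genes Ddx3y, Eif2s3y, Kdm5d or Uty, which had 432 to 1581 counts each in the other libraries. The 1 library with this female pattern thus lay in the mandible group. Levels are given as counts per 1000000 counts (CPM) after scaling by the trimmed mean of M values (TMM), with the mean ± SD of 3 libraries per group, and a count of 0 allows up to 3 counts, or 0.133 to 0.172 CPM. Fold changes are those of the mandible over the femur in edgeR's quasi-likelihood test over all 18114 genes, and calls required p under 0.05 after Benjamini-Hochberg adjustment together with a change of at least 2-fold. Of the 18114 genes 938 were called, or 5.18%, with 3.88% called higher and 1.30% called lower in the mandible.

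All 10 monocyte markers had counts in every library. By edgeR's quasi-likelihood test none was called and 1 had an unadjusted p under 0.05, no other tool called any, and their summed level was 2437 to 4155 CPM in femur and 2225 to 4509 CPM in mandible. Other markers differed between the sites. Of 14 mesenchymal and osteoblast markers 13 were called higher in the mandible, with a sum of 146 to 179 CPM in femur and 8830 to 15273 CPM in mandible. Of 10 dental epithelial markers 7 were called higher, with a sum of 8.94 to 12.02 CPM in femur and 5781 to 11330 CPM in mandible. These 7, and Prrx1, Sp7 and Bglap of the mesenchymal list, passed the low-count filter only with the mandible libraries, where they are high. Both counts of calls are therefore a description only. Of 14 megakaryocyte and platelet markers 13 were tested and 12 were called lower, with a sum of 958 to 1332 CPM in femur and 104 to 172 CPM in mandible. Of the neutrophil markers 1 of 8 was called lower, with sums of 3301 (S15) to 28924 CPM in femur and 3121 to 7559 CPM in mandible. All 8 of them had a log2 fold change below 0, with a median of -1.74 and 5 at an unadjusted p under 0.05, and DESeq2 called 3 and edgeR's exact test 4 of them lower. Of the endothelial and the marrow macrophage markers 1 each was called lower, and none of the Schwann and nerve, the B lineage or the 12 reference genes was called by edgeR's quasi-likelihood test, with 1, 0 and 3 at an unadjusted p under 0.05 and 1 Schwann gene and 1 reference gene called by DESeq2. In such bulk libraries fewer cells of a type and less RNA per cell cannot be told apart.

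**Figure D1:**
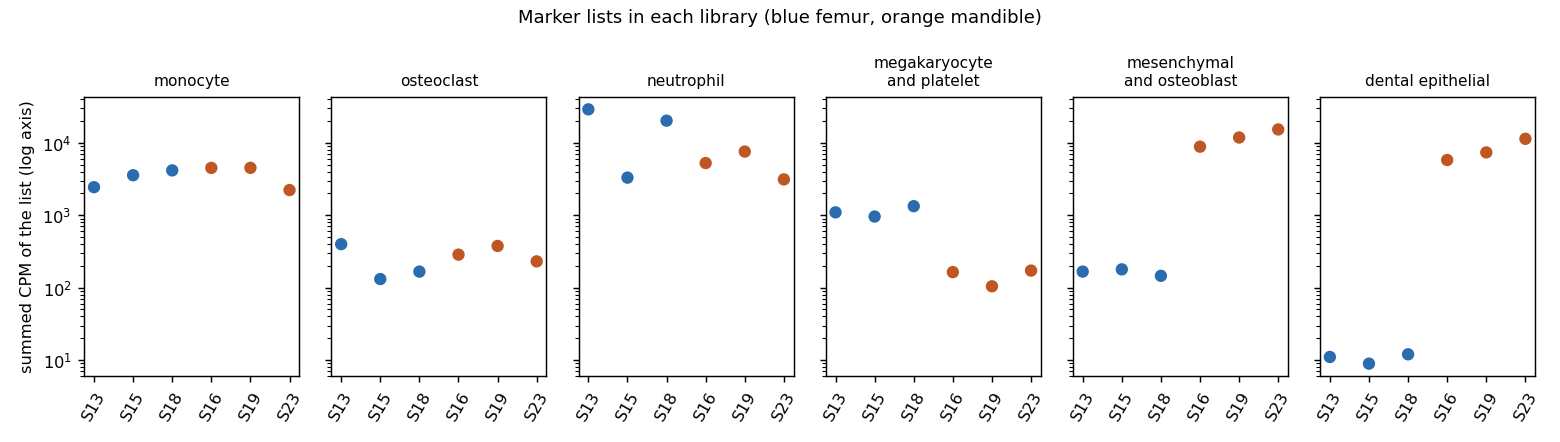
Summed level of 6 marker lists in each library, as TMM-scaled CPM on a log axis, with 1 point per library, femur in blue and mandible in orange. The monocyte sums overlap between the sites, while the mesenchymal (8830 to 15273 CPM) and dental epithelial sums (5781 to 11330 CPM) of the mandible lie above the femur and the megakaryocyte sums (104 to 172 CPM) below it.

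The beta3 and beta5 chains changed in opposite directions between the sites. Itgb3 fell 3.18-fold in the mandible, Itgb5 rose 3.69-fold and Itgav rose 2.03-fold, and these were the 3 of 6 members that were called, against 5.18% of all genes tested. Itgb1, alone or with Itgb3 at the top of the levels per length, Itgb6 and Itgb8 did not pass the test. The 3 mandible libraries lay wholly to one side of the 3 femur libraries for Itgav, Itgb3, Itgb5 and Itgb6, as they did for 24.2% of all genes tested. Itgb3 and Itgb5 had been named by the study from these same libraries, so their directions are not independent evidence.

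**Figure D2:**
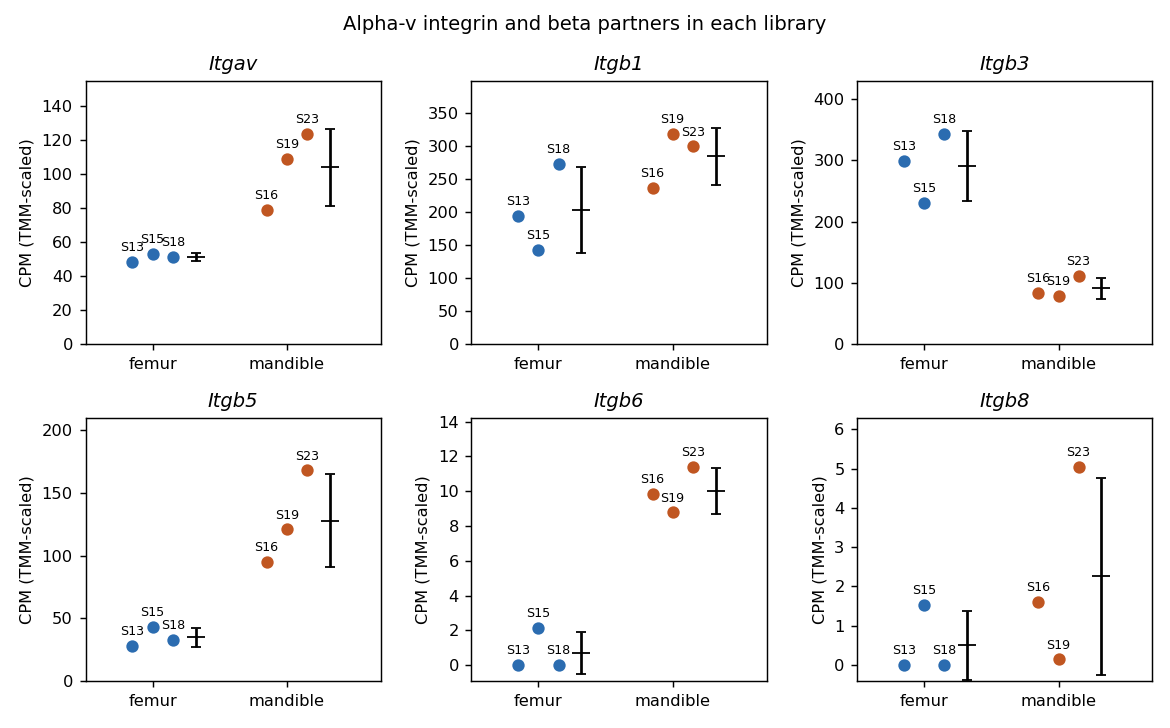
Level of each member in each library, as TMM-scaled CPM on linear axes that differ between panels, with 1 point per library and the mean ± SD of 3 libraries beside each group. Itgav, Itgb5 and Itgb6 are higher in every mandible library and Itgb3 in every femur library, while Itgb1 and Itgb8 overlap.

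Itgb3 (ENSMUSG00000020689, GRCm38, chr11:104608000-104670476, plus strand) encodes the beta chain through which osteoclasts signal on bone and with which platelets bind fibrinogen. Its counts were 5412 in S13, 4993 in S15 and 7769 in S18 of the femur, and 1669 in S16, 1669 in S19 and 1945 in S23 of the mandible. As levels these were 299, 230.0 and 343 CPM in femur and 83.5, 79.2 and 111 CPM in mandible. The lowest femur library, S15, was above the highest mandible library, S23. The means were 291 ± 57.0 CPM in femur and 91.3 ± 17.4 CPM in mandible, and the log2 fold change was -1.67 ± 0.28 (SE), with a 95% interval of -2.29 to -1.05. The adjusted p was 0.0051 by edgeR's quasi-likelihood test (Benjamini-Hochberg adjusted), which placed Itgb3 at rank 320 of the genes by p, and 1.30% of all genes were called lower. The exact two-sided permutation test gave p = 0.1, the smallest that 3 against 3 libraries allow. Without mandible library S19 the call was lost, at an adjusted p of 0.056 and a log2 fold change of -1.63.

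Itgb5 (ENSMUSG00000022817, chr16:33829665-33949338, plus strand) encodes the beta chain that shares vitronectin with beta3. Its counts were 508 in S13, 940 in S15 and 736 in S18 of the femur, and 1896 in S16, 2545 in S19 and 2936 in S23 of the mandible. As levels these were 28.1, 43.3 and 32.5 CPM in femur and 94.9, 121 and 168 CPM in mandible. Every mandible library lay above S15, the highest femur library. The means were 34.6 ± 7.84 CPM and 128 ± 37.0 CPM, and the log2 fold change was 1.88 ± 0.30 (SE), with a 95% interval of 1.23 to 2.54. The adjusted p was 0.0037 by the same edgeR test, at rank 264 by p, and 3.88% of all genes were called higher. Itgb5 was called under each of 16 alternative settings, whose log2 fold changes ran from 1.58 to 2.06. Another gene, Gm38317, holds 7.25% of the 50-base windows of the Itgb5 exons, but it had 4 to 8 counts in femur and 17 to 56 in mandible.

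The end of the coding sequence, which lies in the cytoplasmic tail or reaches just before it, is shown for both chains, since both can pair with alpha-v and the tail is where integrin beta chains meet talin. Each line holds, at a fixed length that does not start at the same residue in both, the last 150 coding bases before the stop codon, 5′ to 3′, read from GRCm38 at the exons of the principal GENCODE M21 transcript, and the capitals mark the codons of the Asn-Pro-x-Tyr motif, the talin contact of beta tails. The Itgb3 bases lie in exon 14 (chr11:104665546-104665632) and exon 15 (chr11:104667080-104667142), and those of Itgb5 in exon 14 (chr16:33947825-33947881) and exon 15 (chr16:33948657-33948749).
Itgb3: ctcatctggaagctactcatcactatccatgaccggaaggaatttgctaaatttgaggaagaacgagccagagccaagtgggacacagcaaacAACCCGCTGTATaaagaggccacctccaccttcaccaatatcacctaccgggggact
Itgb5: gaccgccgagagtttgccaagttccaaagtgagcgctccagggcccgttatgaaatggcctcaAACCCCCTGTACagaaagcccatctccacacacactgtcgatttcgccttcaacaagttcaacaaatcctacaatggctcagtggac
The motif began 19 codons before the end of the coding sequence in Itgb3 and 29 codons before it in Itgb5. The 2 genes shared no exon stretch of 50 bases with each other or with the other 4 members, so reads of that length could be told apart between members.

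Itgav (ENSMUSG00000027087, chr2:83724397-83806916, plus strand) encodes the alpha chain that all 5 beta chains share. Its counts were 878 in S13, 1156 in S15 and 1165 in S18 of the femur, and 1580 in S16, 2294 in S19 and 2165 in S23 of the mandible. As levels these were 48.5, 53.3 and 51.5 CPM in femur and 79.1, 109 and 124 CPM in mandible. The femur libraries lay close together and below every mandible library, and S16 was the lowest of the mandible. The means were 51.1 ± 2.41 CPM and 104 ± 22.8 CPM, and the log2 fold change was 1.02 ± 0.26 (SE), with a 95% interval of 0.46 to 1.59. The adjusted p was 0.042 by edgeR's quasi-likelihood test (Benjamini-Hochberg adjusted), at rank 864 by p, close to the threshold in both p and fold. The call was lost without any one of S13, S18, S19 or S23, and with a trend of the libraries on gene length removed the log2 fold change was 0.40 with an adjusted p of 0.57. A gene on the opposite strand, Gm13684, shares 634 exon bases with Itgav and had 12 counts, all in S15.

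The sequence before the transcription start of Itgb5, the member with the largest called rise, is shown with its GC boxes, the GGGCGG letters that Sp-family factors bind. It runs from chr16:33829415-33829664 (RefSeq, GRCm38.p6, plus strand, 5′ to 3′), ends at the base before the start, and has the GC boxes on either strand in capitals.
Itgb5 upstream: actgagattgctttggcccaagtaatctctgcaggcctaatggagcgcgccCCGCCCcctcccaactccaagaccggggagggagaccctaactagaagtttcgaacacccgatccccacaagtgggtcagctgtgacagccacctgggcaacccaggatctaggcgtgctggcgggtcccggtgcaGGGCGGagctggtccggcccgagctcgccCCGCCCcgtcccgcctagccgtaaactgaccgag
The GC boxes begin at -199, -63 and -34 from the start. RefSeq windows of 250 bases before to 50 bases after the start were matched for 5 of the 6 members, not for Itgb3. The Itgav window held 1 GC box, 8 bases after the start, the Itgb1 window held 1 at -151, and the windows of Itgb6 and Itgb8 held none. Of 32851 promoter windows 35.7% held a GC box. The letters CCAAT were found among the members in the Itgb8 window, at -126, against 37.4% of all windows, and TATAAA in no member's window, against 13.6% of all windows. These matches are letters in a window, on both strands, and no binding was measured.

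Itgb1 (ENSMUSG00000025809, chr8:128685654-128733200, plus strand) encodes the common beta chain, which also forms the collagen, laminin and fibronectin receptors with other alpha chains. Its counts were 3529, 3109 and 6171 in S13, S15 and S18 of the femur and 4722, 6717 and 5238 in S16, S19 and S23 of the mandible. The femur level in S18, 273 CPM, lay above the mandible level in S16, 236 CPM, so the groups overlapped. The means were 204 ± 65.1 CPM and 285 ± 43.2 CPM, and the log2 fold change was 0.48 ± 0.30 (SE), with a 95% interval of -0.18 to 1.15, which holds both no change and a 2-fold rise. The adjusted p was 0.51 by edgeR's quasi-likelihood test (Benjamini-Hochberg adjusted), and no alternative setting called Itgb1.

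Itgb6 (ENSMUSG00000026971, chr2:60598292-60722643, minus strand) encodes the epithelial beta chain. It had 0 counts in femur libraries S13 and S18, 46 counts in S15, and 197, 185 and 199 counts in S16, S19 and S23 of the mandible. As levels the mandible libraries stood at 9.86, 8.78 and 11.4 CPM and S15 at 2.12 CPM. The groups did not overlap, with means of 0.706 ± 1.22 CPM in femur, all of it from S15, and 10.01 ± 1.31 CPM in mandible. The mandible mean was at least 60.4-fold higher than the 3 counts per library that the zeros in S13 and S18 allow. The fitted log2 fold change was 3.80 ± 1.38 (SE), with an adjusted p of 0.17 by edgeR's quasi-likelihood test (Benjamini-Hochberg adjusted), so Itgb6 was not called. Without S15, the library with counts on the most genes, Itgb6 was called at an adjusted p of 0.00079, with a fitted log2 fold change of 10.62 that depends on the prior count. Itgb6 passed the filter on low counts through its mandible libraries and S15, and its presence in the test therefore leans on the group where it is high. Among the dental epithelial markers Odam was at 0 in all 3 femur libraries, Amtn, Krt14 and Klk4 were at 0 in S13 and S18, and Krt5 was at 0 in S13 and S15. Klk4 and the general epithelial markers Epcam and Cdh1 were not called by edgeR's quasi-likelihood test. Epcam had a log2 fold change of -0.48, at 1.05, 1.24 and 3.53 CPM in S13, S15 and S18 and 0.450, 1.90 and 1.83 CPM in S16, S19 and S23. Cdh1 had a log2 fold change of 0.65, at 7.44 CPM in femur and 11.7 CPM in mandible on average. The enamel matrix genes Amelx and Ambn stood at 0.217 ± 0.1001 and 0.201 ± 0.225 CPM in femur and at 4386 ± 1830.1 and 2612 ± 861 CPM in mandible, and the part of such RNA in the Itgb6 level was not tested.

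Itgb8 (ENSMUSG00000025321, chr12:119158022-119238802, minus strand) encodes the other beta chain known for TGF-beta release. It had 0, 33 and 0 counts in S13, S15 and S18 and 32, 3 and 88 counts in S16, S19 and S23. S23 at 5.03 CPM and S16 at 1.60 CPM were the highest libraries, but S19 at 0.142 CPM lay below S15 at 1.52 CPM. The log2 fold change of 2.14 ± 1.93 (SE) had a 95% interval of -2.10 to 6.37 and an adjusted p of 0.70 by edgeR's quasi-likelihood test (Benjamini-Hochberg adjusted). A difference in Itgb8 was not detectable at these counts.

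**Figure D3:**
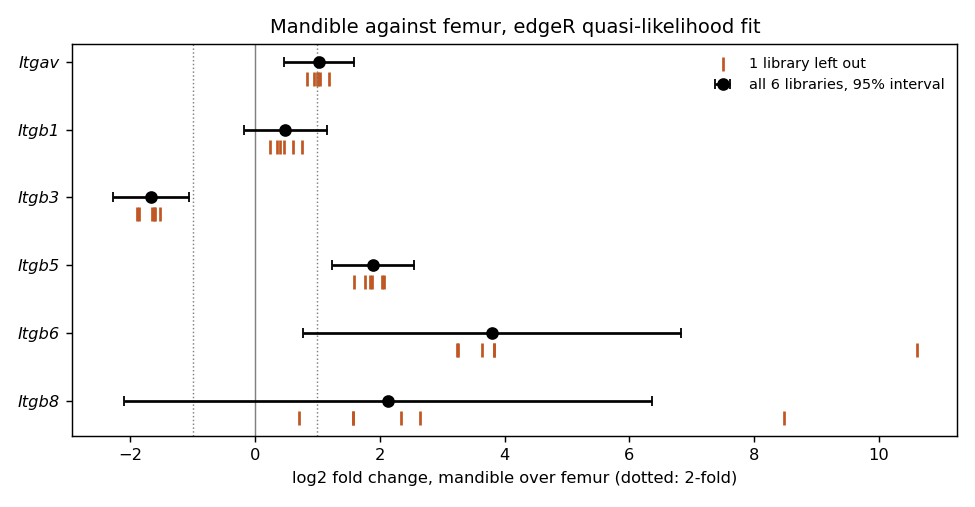
Log2 fold change of each member, mandible over femur, from edgeR's quasi-likelihood fit, with the 95% interval of all 6 libraries in black and the value with each library left out in turn as orange ticks, and dotted lines at 2-fold. The intervals of Itgb3 (-2.29 to -1.05) and Itgb5 (1.23 to 2.54) lie on opposite sides of 0, that of Itgb8 spans 0, and the rightmost ticks of Itgb6 and Itgb8 are the fits without S15.

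The balance of beta3 and beta5 needs no scaling between libraries, since both genes are counted in the same library. There were 10.7, 5.31 and 10.6 Itgb3 counts per Itgb5 count in S13, S15 and S18 of the femur. In S16, S19 and S23 of the mandible there were 0.880, 0.656 and 0.662. Itgb3 was therefore the more counted chain in each femur library and Itgb5 in each mandible library. On the log2 scale the ratio was 3.07 ± 0.58 in femur and -0.46 ± 0.24 in mandible, a difference of -3.54. These ratios are a description, since the pair was chosen with its values known, and S15 was the femur library nearest to the mandible.

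Levels were compared between genes per length, as CPM per 1000 bases of counted exon. In the femur Itgb1 at 49.9 (35.1 to 66.8) and Itgb3 at 49.3 (39.0 to 58.2) CPM per 1000 bases overlapped at the top, followed by Itgb5 at 9.75 (7.90 to 12.2) and Itgav at 4.75 (4.51 to 4.96). Itgb6 and Itgb8 came last, with means of 0.0993 and 0.0458 CPM per 1000 bases and overlapping libraries. In the mandible Itgb1 at 69.8 (57.9 to 78.1) CPM per 1000 bases led alone, with Itgb5 at 36.0 (26.7 to 47.3) in the second place and Itgb3 at 15.5 (13.4 to 18.9) in the third. Itgav at 9.67 (7.36 to 11.5), Itgb6 at 1.41 (1.24 to 1.60) and Itgb8 at 0.204 (0.0129 to 0.455) CPM per 1000 bases followed, and no neighbours in the mandible order overlapped. Itgb3 was thus above Itgb5 in femur and below it in mandible, with Itgb1 above or level with both and Itgav, Itgb6 and Itgb8 below them at either site.

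As a share of the summed beta level per length, Itgb3 made up 47.6, 45.0 and 43.4% in S13, S15 and S18 and 14.1, 10.6 and 13.3% in S16, S19 and S23. Itgb5 made up 7.43, 14.1 and 6.82% in the femur libraries and 26.6, 26.8 and 33.4% in the mandible libraries. Both shares were apart between the sites in every library. Itgb1 took 45.1 ± 4.67% of the beta level in femur and 57.1 ± 4.92% in mandible, and Itgb6 0.115 ± 0.198% and 1.16 ± 0.206%. Itgb3 and Itgb5 together made up 54.8 ± 4.42% in femur and 41.6 ± 4.71% in mandible. Their summed level, 59.0 ± 8.08 against 51.5 ± 13.1 CPM per 1000 bases, overlapped between the sites, as did the summed level of all 5 beta chains at 109 ± 23.8 against 123 ± 20.9. The makeup of the beta level thus differed in each library, while its sums overlapped.

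**Figure D4:**
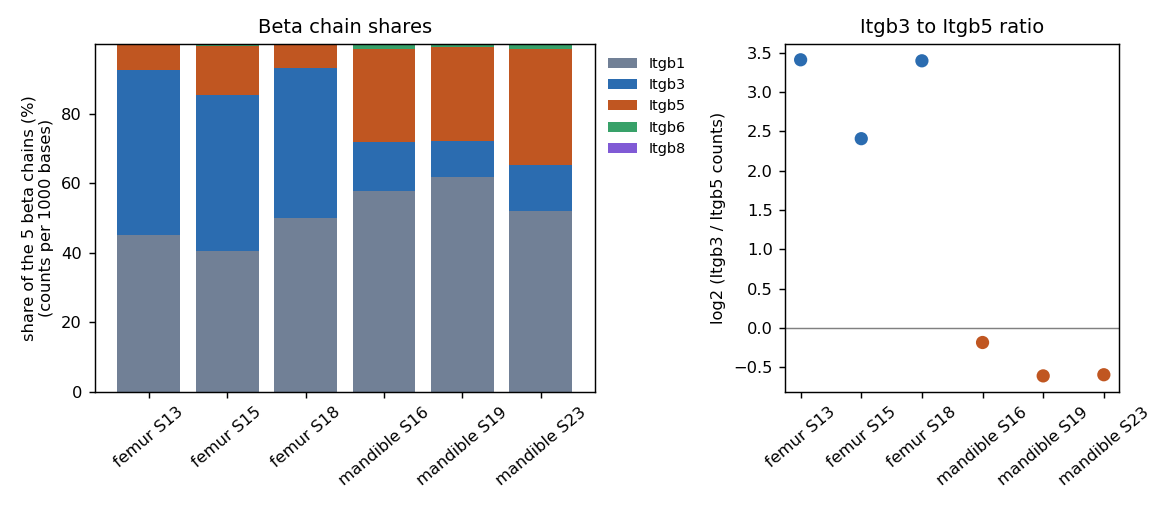
Left, share of each beta chain in the summed beta level per 1000 bases, in percent, as 1 stacked bar per library. Right, log2 of the Itgb3 to Itgb5 count ratio in each library, with a line at equal counts, femur in blue and mandible in orange. Itgb3 takes 43.4 to 47.6% of the femur bars and 10.6 to 14.1% of the mandible bars, and the ratio lies above 0 in femur and below 0 in mandible.

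Set against the alpha-v chain on the same scale per length, Itgb3 stood at 10.4 ± 2.25 times the Itgav level in femur and 1.63 ± 0.299 times in mandible. Itgb5 stood at 2.04 ± 0.372 times the Itgav level in femur and 3.69 ± 0.377 times in mandible, so that per alpha-v transcript beta5 was higher and beta3 lower in each mandible library. Itgb1 per Itgav was 10.5 ± 3.43 and 7.32 ± 0.823 and overlapped between the sites. All 5 beta chains together held 23.01 ± 5.27 times the Itgav level in femur and 12.8 ± 0.719 times in mandible. With the longest annotated transcript as the length in place of all counted exons, these sums were 12.1 to 19.3 in femur and 8.65 to 9.59 in mandible, so the multiples depend on the length used, while the libraries of the sites stayed apart.

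Beta3 has another alpha partner, and its gene moved with Itgb3. Itga2b, the alpha-IIb chain of the platelet fibrinogen receptor, stood at 239, 189 and 254 CPM in S13, S15 and S18 and at 49.9, 32.9 and 28.8 CPM in S16, S19 and S23. The groups did not overlap, and Itga2b fell by 2.61 on the log2 scale (SE 0.30), with an adjusted p of 0.00048 by edgeR's quasi-likelihood test (Benjamini-Hochberg adjusted). Per length, Itga2b was 8.80 ± 1.58 times Itgav in femur and 0.765 ± 0.419 times in mandible. With the lengths of all counted exons there were thus more Itga2b than Itgav transcripts per length in all 3 femur libraries and in S16. There were fewer in S19 and S23. The S16 ratio was 1.24 and no other length was tried for Itga2b, so its order there may depend on the length used. Itgb3 per Itga2b was 1.16, 1.13 and 1.249 in the femur libraries and 1.55, 2.23 and 3.57 in the mandible libraries. Set against both of its alpha chains together, Itgb3 was at 1.06 ± 0.0734 in femur and 0.937 ± 0.161 in mandible, with overlapping libraries. The summed level of Itgav and Itga2b was 46.4 ± 6.15 CPM per 1000 bases in femur and 16.5 ± 0.316 in mandible.

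The megakaryocyte and platelet markers moved in the same direction as Itgb3. Pf4, a chemokine of platelet granules, was at 208 ± 102 CPM in femur and 13.8 ± 3.97 CPM in mandible, Tubb1, the platelet tubulin, at 178 ± 50.7 and 32.2 ± 13.8 CPM, and Gp1ba, a chain of the von Willebrand factor receptor, at 21.9 ± 5.24 and 1.24 ± 0.769 CPM. All of them and Gp6, the platelet collagen receptor, were called lower. Of this list Gp9, at 11.9 and 1.19 CPM with a 0 in S16, was not called by edgeR's quasi-likelihood test but was called lower by DESeq2 and by edgeR's exact test, and Gp1bb did not pass the filter, with counts in S18 alone. The neutrophil markers were also lower in the mandible, as given above, though S15 lay among the mandible libraries in their sum. The part of such RNA in the Itgb3 level was not tested. Of 10 osteoclast markers 7 were tested, none was called by edgeR's quasi-likelihood test or by any other tool, and 1 had an unadjusted p under 0.05, with a sum of 131 to 398 CPM in femur and 231 to 376 CPM in mandible. All 7 had a log2 fold change above 0, with a median of 0.72. The overlap of the sums rested on Mmp9, a protease that neutrophils also make, at 288 CPM in S13, and without it the sums were 108 to 114 CPM in femur and 139 to 213 CPM in mandible, a comparison chosen after seeing the data. Ctsk, the collagenase of osteoclasts, was at 9.85 ± 5.92 and 26.3 ± 14.0 CPM with an adjusted p of 0.17, and Nfatc1, the osteoclast transcription factor, at 74.6 ± 10.9 and 107 ± 16.6 CPM with an adjusted p of 0.35, both by edgeR's quasi-likelihood test (Benjamini-Hochberg adjusted).

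The mesenchymal and osteoblast markers moved in the same direction as Itgav and Itgb5. Col1a1, the main collagen chain of bone, was at 32.2 ± 11.5 CPM in femur and 5801 ± 1159.8 CPM in mandible, and Col3a1, a collagen of soft tissue, at 6.40 ± 1.246 and 2299 ± 1069 CPM. The mesenchymal and the dental epithelial sums, like the levels of Itgav and Itgb5, were lowest in S16 and highest in S23 among the mandible libraries. The part of such RNA in the Itgav and Itgb5 levels was not tested. In femur libraries S13, S15 and S18 the mesenchymal sum was 167, 179 and 146 CPM, and Itgb5 was at 28.1, 43.3 and 32.5 CPM. S15 was the highest femur library in both, while the lowest was S18 for the sum and S13 for Itgb5.

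The genes whose profile over the 6 libraries was most like that of each member were found by the root mean square distance of log2 CPM, each gene centred on its mean, among 10377 genes of at least 5 CPM. For Itgb3 the nearest were Mmrn1, a protein of platelet granules, at a distance of 0.103, Mrpl55, of the mitochondrial ribosome, at 0.179, and the histone gene H2bc8 at 0.203. For Itgb5 they were Tulp4 at 0.121, the secreted Wnt antagonist Sfrp4 at 0.133 and the matrix gene Matn2 at 0.141. For Itgav they included Pdzd4 at 0.124 and the phosphatase Dusp16 at 0.145. For Itgb1 they were Gnas at 0.101, Ubqln2 at 0.106 and Snx7 at 0.110, and for Itgb6 Kif26a at 0.255, Fhod3 at 0.272 and Pcsk6 at 0.385. For Itgb8 no gene came nearer than 1.07 (Fam83g). The distances are descriptions of 6 points that share the same libraries and the same contrast between sites.

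Ligands of alpha-v integrins were mostly higher in the mandible where they were called. Of 31 listed ligands 23 were tested, and 20 had a log2 fold change above 0. In the mandible 12 were called higher and 1 lower, against 3.88% and 1.30% of all genes tested. The median log2 fold change of the 23 was 2.03, against -0.04 over all genes tested. Among those called higher, Dspp, Npnt, Ccn1 and Tgfb3 passed the low-count filter through the mandible libraries, where they are high, so the count and the median are a description only. With 10 counts or more needed in each library 8 ligands were called higher, and limma-voom called 9. The called ligands included Dspp, a dentin protein, Ccn1, a matricellular protein, and Postn, or periostin of the periodontal ligament. Postn stood at 5.63, 2.21 and 2.30 CPM in S13, S15 and S18 and at 121, 236 and 208 CPM in S16, S19 and S23, a log2 fold change of 5.81 (SE 0.47). Ccn1 and Dspp had fitted log2 fold changes of 5.89 and 6.30, which rest on femur libraries at or near 0, since Dspp had no count in S13 and S18 and Ccn1 none in S18. The called ligands also held the bone RGD proteins osteopontin (Spp1), bone sialoprotein (Ibsp) and Dmp1, the microfibril protein Fbn1, and Thbs2, Ccn2, Mfge8, Npnt and Tgfb3.

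Spp1, the osteopontin to which osteoclasts bind by alpha-v beta3, was at 58.5, 30.4 and 48.0 CPM in the femur libraries and at 151, 271 and 311 CPM in the mandible libraries. Its log2 fold change was 2.42 (SE 0.36), with an adjusted p of 0.0024 by edgeR's quasi-likelihood test (Benjamini-Hochberg adjusted). Each mandible library was above each femur library. Vwf, von Willebrand factor, was the ligand called lower, at 156 ± 35.1 CPM in femur and 25.8 ± 2.53 CPM in mandible, and it is also one of the megakaryocyte and platelet markers. The ligands with the highest level were not called. Fn1, fibronectin, was at 2032 ± 862 and 4055 ± 1315 CPM and was called higher by DESeq2 alone, Thbs1, thrombospondin of platelets and matrix, at 323 ± 85.1 and 286 ± 111 CPM, and Tgfb1, whose latent form carries the RGD motif, at 165 ± 27.0 and 187 ± 14.9 CPM. Spp1 and Ibsp are also made by osteoblasts and Postn is one of the mesenchymal markers listed above, so the ligand and mesenchymal lists are not separate. Without mandible library S19, 7 ligands were called higher in place of 12.

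**Figure D5:**
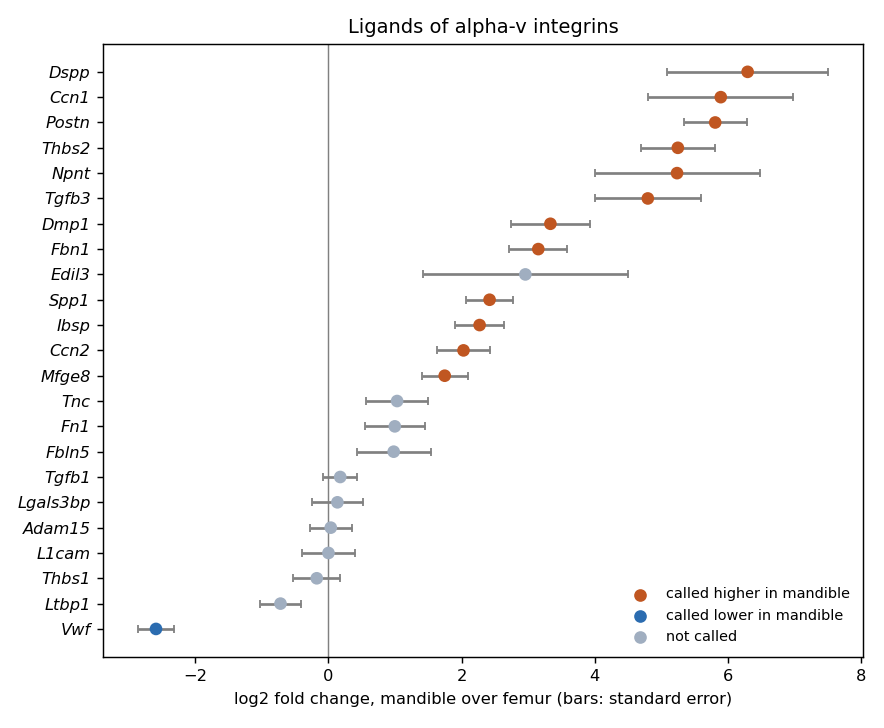
Log2 fold change, mandible over femur, of the 23 tested alpha-v ligands, with bars for the standard error and colours for the call by edgeR's quasi-likelihood test. The 12 ligands called higher lie between Mfge8 at 1.75 and Dspp at 6.30, and Vwf at -2.59 is the 1 called lower.

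The genes that store and free latent TGF-beta, which beta6 and beta8 receptors bind, were counted next, in a list that also held TGF-beta receptors and Smad genes of its signaling. Of 19 tested genes 8 were called higher, against 3.88% of all genes tested, and none was called lower. The median log2 fold change was 0.78, against -0.04 over all genes tested. Among those called higher, Tgfb2, Tgfb3 and Ltbp4 passed the low-count filter through the mandible libraries, where they are high. The count and the median are therefore a description only. DESeq2, edgeR's exact test and limma-voom called 9, 8 and 7 higher and none lower. Mmp2 and Mmp14, matrix proteases that can free TGF-beta, had log2 fold changes of 6.38 and 4.14, Ltbp4, which binds latent TGF-beta to matrix, 6.18, and Tgfb3 4.80. Ltbp3, Tgfb2 and the receptors Tgfbr2 and Tgfbr3 were also called. Tgfb1 and Nrros, which holds latent TGF-beta on myeloid cells, were not, Nrros being at 174 ± 47.2 CPM in femur and 145 ± 34.3 CPM in mandible. Of the 19 genes 14 had a log2 fold change above 0. Below 0 and not called were Lrrc32 (-1.65), Ltbp1 (-0.72), Ltbp2 (-0.42), Nrros (-0.26) and Thbs1 (-0.18). Ltbp1 was at 30.6 ± 2.89 CPM in femur and 18.6 ± 4.18 CPM in mandible, and the groups did not overlap. The count was 5 without mandible library S19 and 5 where each tested gene needed 10 counts or more per library.

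The inner partners of the beta chains mostly did not pass the test. Of 26 activation and adhesion adaptors 3 were called higher and none lower, against 3.88% and 1.30% of all genes tested. Their median log2 fold change was 0.07. That median mixes changes in both directions, since 14 had a log2 fold change above 0. By edgeR's quasi-likelihood test 9 had an unadjusted p under 0.05. Parvb, named here after its values were seen, had the lowest log2 fold change, -0.97, with an adjusted p of 0.058 by that test. Tln1, the talin that switches beta tails on, stood at 1152 ± 58.6 CPM in femur and 1487 ± 471 CPM in mandible, and was not called. Flna, filamin A, was at 2019.8 ± 220.2 and 2273 ± 377 CPM and was not called either. The 3 called adaptors were Tln2, Parva and Fermt2, which encode a talin, a parvin and a kindlin, with log2 fold changes of 2.49, 4.30 and 3.43, and their mandible means were 40.7, 26.8 and 25.04 CPM. The adaptors called were thus low ones in the femur, at 7.23, 1.35 and 2.33 CPM on average. Parva and Fermt2, at 0.265 and 0.177 CPM in S18, passed the low-count filter only with the mandible libraries, where they are high. The count of called adaptors is therefore a description only.

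The next list held 24 genes of osteoclast signaling with beta3, among them surface proteins such as Cd9. By edgeR's quasi-likelihood test 1 was called in each direction, against 3.88% of all genes tested called higher and 1.30% lower. The median log2 fold change was 0.10, while DESeq2 called 4 and edgeR's exact test 3 of them higher. Syk, the kinase that beta3 signals through in osteoclasts, was at 336 ± 13.5 and 372 ± 58.7 CPM, and Plcg2, a phospholipase on the same path, at 322 ± 33.3 and 397 ± 91.3 CPM, and neither was called. Cd9, a tetraspanin of platelets and precursors, was called lower at 106 ± 46.4 and 35.3 ± 3.47 CPM, and Dab2, an endocytic adaptor of beta tails, was called higher at 2.15 ± 1.11 and 13.2 ± 3.26 CPM. Of 21 other integrin chains 20 were tested, Itga2b was called lower and Itga11, a collagen receptor chain of mesenchymal cells, higher, at 1.65 ± 0.714 and 61.1 ± 37.8 CPM. Itgb4, the beta chain of epithelial hemidesmosomes, named here after its values were seen, was at 0, 3.64 and 0.221 CPM in femur and 18.2, 20.3 and 34.8 CPM in mandible, and was called higher by edgeR's exact test and limma-voom but not by the quasi-likelihood test. DESeq2 called Itga3 higher beside Itga11. Itgb2, the leukocyte beta chain, was at 565 ± 126 and 687 ± 198 CPM and Itga4 at 313 ± 22.9 and 428 ± 36.3 CPM, and neither was called. Of 11 alpha chains that pair with beta1, 10 were tested and Itga11 was the 1 called, with a median log2 fold change of 0.14.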

How the data were processed

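RNA from monocytes was sequenced in 6 libraries, 3 per site. The authors used Trimmomatic for trimming of the paired-end reads, HISAT2 2.1.0 for mapping to GRCm38, as they name it, and featureCounts for counting, and they deposited these counts per gene unnormalized, beside the length of each gene. The strand and multi-mapping settings are not given in the sources used here. The intervals in the table did not lie inside the GENCODE M21 genes of the 6 members, so positions were taken from M21 (GRCm38) by Ensembl identifier. No column of sample values was left unused (0).

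The mandible was compared with the femur by edgeR 4.0.16 in R 4.3.3 (filterByExpr, minimum count 10 and minimum total 15, TMM, quasi-likelihood test, prior count 0.125), with no covariate. For each member the 3 against 3 values of log2(CPM + 0.5) also entered a two-sided exact permutation test, and the ratio of Itgb3 to Itgb5 used counts + 0.5. Shares per length used the deposited lengths. The study's methods give the thresholds. Alternatives were limma-voom (limma 3.58.1), DESeq2 1.42.0, the exact test of edgeR, other size factors, filters and thresholds, a loess correction (span 0.4) on gene length, and each library left out in turn, and the counts of called members and list genes under them were chosen after seeing the data. The tests were tried on simulated data. Limits from counts cover counting error only.

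The members and gene lists were chosen with earlier results of these data known. Named genes were the members, from each discussed list the 3 genes of highest mean CPM and, in each direction, up to 3 called genes of largest log2 fold change, and the 3 tested protein-coding genes nearest in profile to each member (prior count 2, mean of at least 5 CPM). One gene that meets this rule is not reported here. Other ligands, latent TGF-beta genes, markers at or near 0 and overlapping genes were named after their values were seen.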

Additional observations from a re-analysis of the deposited data

How the results depend on the processing

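No direction of a member was reversed in any setting run. Calls over all genes, 938, became 1548 with DESeq2, 1468 with edgeR's exact test, 1590 with every gene with a count and 445 at an adjusted p under 0.01, and ran from 434 (without S19) to 1565 (without S15) with 1 library left out. The Itgav log2 fold change, 1.02, lost its call with limma-voom (1.00), with every gene with a count (0.99), with the length trend removed (0.40) and at an adjusted p under 0.01 (1.02), and ran from 0.83 to 1.19 with 1 library left out. Itgb3 ran from -1.89 to -1.53 with 1 library left out, and Itgb5, called throughout, from 1.58 to 2.06. Itgb6 was called with every gene with a count (3.81) and without S15, and ran from 3.23 to 10.62. Itgb1 (0.24 to 0.76) and Itgb8 (0.71 to 8.48) were never called. The 3 members called became 1 (Itgb5) without S19 and 4 without S15. The Itgb3 to Itgb5 difference ran from -3.87 to -3.37 and that of their summed share from -15.7 to -11.0 percentage points. Asking for at least 10 counts in every library gave no value for Itgb6 and Itgb8. The causes of these changes were not tested. No paired analysis was possible because the labels tie no library to an animal, so whether libraries of the 2 sites share a mouse is not known.

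With 3 libraries a group, a permutation test cannot go below 0.1, and Itgb6 and Itgb8 rest on few counts. The labels give no sex, animal or batch of a library, and none was entered as a covariate.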
